A study of Mus musculus with 16 samples.

Results

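The vascular basement membrane was examined through 10 genes chosen by name, among 54532 genes measured with bulk RNA-seq in mouse pulmonary endothelial cells (ECs). The set held 2 collagen IV genes (Col4a1, Col4a2), 3 laminin alpha genes (Lama3, Lama4, Lama5), 2 laminin beta genes (Lamb1, Lamb2), 1 laminin gamma gene (Lamc1) and 2 nidogen genes (Nid1, Nid2), and all 10 were tested in both experiments. The first experiment held WT males of the C57/BL6J strain, aged 8 weeks, which received saline (n = 4) or LPS at 10 mg/kg (n = 6) into the trachea. LPS is lipopolysaccharide from bacterial outer membranes and is used to model acute lung injury. The second held Fgfr1 loxP/loxP mice (n = 3), labelled wt, and Fgfr1 iΔEC/iΔEC mice (n = 3), labelled cko. Deletion of the Fgfr1 receptor gene was driven by a tamoxifen-inducible Cre under the VE-cadherin promoter, which is active in ECs, and the controls were littermates without the deletion. Both groups received 2 mg/kg LPS, so that experiment has no group without LPS. Cells were taken after 24 h and selected with magnetic beads as CD31+ CD45-. The labels name separate samples and do not say that each is 1 mouse, so p-values measure the spread between these samples.

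The basement membrane is the sheet of matrix on which ECs rest. Collagen IV forms a covalent network, in which the chains encoded by Col4a1 and Col4a2 wind into 1 molecule. Laminins, each built of an alpha, a beta and a gamma chain, form a network of their own on the cell surface, bind integrins and set how tightly leukocytes and fluid are held back. Nidogens link the laminin and collagen networks. The sheet is known to be remodelled when the lung is inflamed.

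Reads on genes numbered 13478726, 18807007, 16184866 and 16731305 in saline 1 to 4, and 17840221 to 19043015 in the LPS libraries. The loxP/loxP libraries held 15969575 to 17002788 and the iΔEC/iΔEC libraries 16642177 to 16943522. Levels are FPKM, that is fragments per gene corrected for gene length and by a factor for each library. That factor did not follow reads on genes alone. In saline 2 (18807007 reads) 1 read per kb of gene was 0.0452 FPKM, and in LPS 6 (18823643 reads) it was 0.0525. Fold changes are differences of log2(FPKM + 1), which understate the change of low genes. A gene was called where its p in limma, adjusted by Benjamini-Hochberg over all genes tested, was at most 0.05.

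The bead fraction was not ECs alone. The endothelial markers Pecam1 (mean 400.3 FPKM in saline and 358 in LPS) and Cdh5 (710 and 394) were read in every library, and no gene of the 10-gene endothelial list was at 0 in any library. Summed over that list, FPKM was 5674, 3176, 3787 and 3273 in saline 1 to 4 and ranged from 1356 to 3202 (median 2712) in LPS, and 6 of its 10 genes fell. The 6 leukocyte genes summed to 228, 156, 76.5 and 138 FPKM in saline and to 641 to 1554 (median 1144) in LPS, and all 6 rose. Ptprc, which encodes CD45, went from 6.97 to 34.6 FPKM. Thus every LPS library held more leukocyte RNA than every saline library, and 5 of the 6 held less endothelial marker RNA than the lowest saline library.

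Other lists moved as well. Macrophage genes summed to a median of 105 FPKM in saline and 1071 in LPS, with 7 of 8 genes higher and Chil3 the most abundant. Neutrophil genes, led by S100a9, summed to 1387, 70.3, 306 and 76.4 FPKM in saline 1 to 4 and to a median of 2580 in LPS, with 6 of 8 higher. Epithelial genes, led by Sftpc, a surfactant protein gene of alveolar epithelium, summed to 2537, 1176, 1998 and 1040 FPKM in saline and to 209 to 702 (median 555) in LPS, with 2 of 10 lower. Fibroblast genes, led by Col3a1 in most libraries, summed to 62.4, 62.4, 36.1 and 55.5 FPKM in saline and to 19.3 to 45.8 (median 30.6) in LPS, and 4 of 6 tested fell (Col1a1, Col1a2, Col3a1, Tcf21). Of 7 mural genes, Pdgfrb (-1.02) and Notch3 (-1.18) fell, while the sum overlapped at 26.6 to 121 FPKM in saline and 33.2 to 58.8 in LPS. Mesothelial genes summed to 2.81 to 7.63 FPKM in saline and 0.785 to 1.65 in LPS, and Upk1b, the only 1 tested, fell (-1.78). None of these fibroblast and mural genes was called lower with scaling on the endothelial list, while Upk1b was (-1.24). The part of these lists in the laminin and nidogen values was not tested. Saline 1 and saline 3 therefore stood apart from saline 2 and 4 in neutrophil and epithelial RNA. Saline 1 was also the highest saline library for 9 of the 10 basement membrane genes, and saline 3 the lowest for 8. In a bulk sample, fewer cells of a type and less RNA per cell cannot be told apart. The plot of marker lists by library gives these sums.

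**Figure D1:**
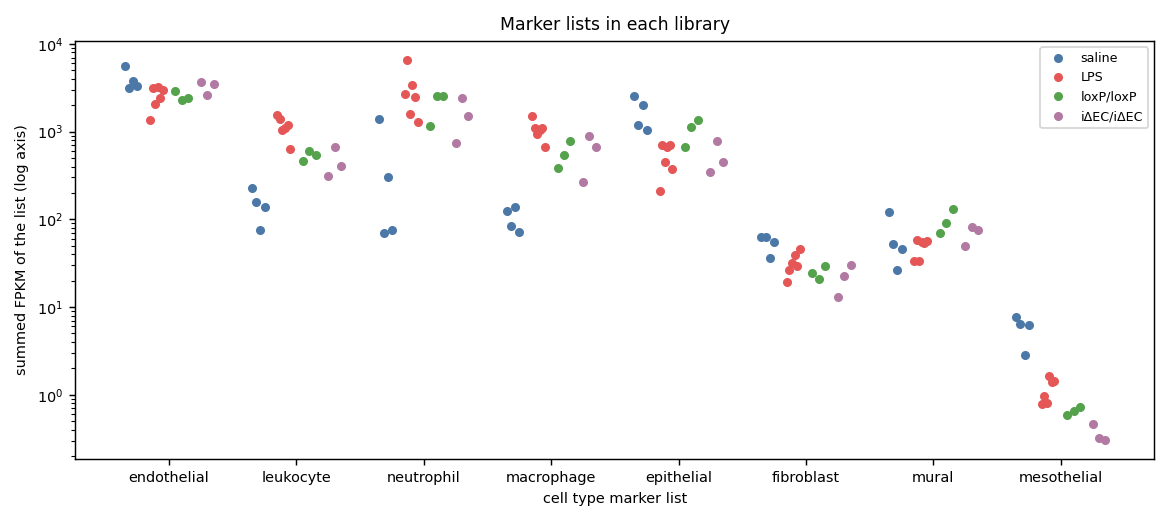
Each point is the summed FPKM (log axis) of a cell type marker list in 1 library of the saline (n = 4), LPS (n = 6), loxP/loxP (n = 3) and iΔEC/iΔEC (n = 3) groups. Leukocyte sums were 76.5 to 228 FPKM in saline and 641 to 1554 in LPS. The 2 experiments were normalized separately.

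Levels of the members spanned 170.4-fold in saline. Mean FPKM in saline ran from Col4a1 (316 ± 69.1, SD, n = 4) and Col4a2 (234 ± 38.9) through Nid1 (41.7 ± 4.44), Lama5 (39.6 ± 12.0), Lamb2 (39.2 ± 3.36) and Lamc1 (26.9 ± 4.40) to Lamb1 (7.28 ± 2.24), Lama4 (5.35 ± 0.513), Lama3 (1.88 ± 0.767) and Nid2 (1.85 ± 0.346). The ranges over the 4 saline libraries overlapped for Col4a1 with Col4a2, for Nid1, Lama5 and Lamb2, for Lama5 with Lamc1, for Lamb1 with Lama4, and for Lama3 with Nid2. The collagen IV genes were thus apart from all other members, and Lamc1 overlapped Lama5 but neither Lamb2 nor Lamb1.

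Comparing LPS with saline, which asks what the injury does to the transcripts of ECs, 5 of the 10 members fell (Lama3, Lama4, Lamb1, Lamb2, Nid2), where 23.7% of the 14893 genes tested were called lower. Only Col4a2 of the 10 rose, where 29.5% of all genes were called higher. The groups did not overlap for 3 members, all lower (Lama3, Lama4, Lamb2), against 16.7% of all genes lower and 22.7% higher. With a further limit of 1 on the size of the log2 change the count was 1 lower (Lama3), against 6.79% of all genes, and 0 higher, against 11.9%. Limma-voom, which fits read numbers in place of FPKM + 1, put Lama3 (-2.19), Lama4 (-1.13) and Lamb1 (-1.01) past that limit, each called. The share of all genes past the limit with limma-voom is not given here, so that count cannot be set against a background. On log2(FPKM + 1) the median change over the members was -0.46 and that over all genes 0.01.

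These directions rest on how libraries are scaled. The median change of all genes was 0.65 with scaling on the endothelial list and -0.15 with scaling on total reads, against 0.01 on the deposited scale. With endothelial scaling 606 of 15015 genes were lower (4.04%) and 7890 higher (52.5%), and among the members 1 was lower (Lama3) and 3 higher (Col4a1, Col4a2, Lamc1). Relative to the median of all genes, Col4a1 and Col4a2 were at 0.07 to 0.78 and the 4 called laminin chains at -1.26 to -0.69 under the deposited scaling and the 3 others tried. With 1 added to FPKM, rescaling moves low genes less than high ones, so these relative values depend in part on level. Ratios between members within a library do not depend on scaling and are given further on.

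Col4a1 (ENSMUSG00000031502, GRCm38 chr8:11198423-11312826, minus strand) and Col4a2 (ENSMUSG00000031503, chr8:11312805-11449287, plus strand) encode the collagen IV chains found in nearly all basement membranes. They lie head to head, and their annotated first exons share 22 bases. That stretch is shown because both genes start in it and had like differences in both comparisons. The sequence is that of the plus strand at chr8:11312801-11312830 (RefSeq, GRCm38.p6), with the shared bases in capitals.
Col4a1 and Col4a2 start: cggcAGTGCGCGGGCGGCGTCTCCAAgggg
The windows from 250 bases before to 50 after the RefSeq start sites of both genes share 78 bases. Each holds 1 CCAAT. The letters GGGCGG were found 1 time in the Col4a1 window and 3 times in that of Col4a2, and the GGGCGG within the capitals is 1 match that counts for both. A match to the NF-kB motif was found in the Col4a2 window only, and its letters overlap those of the CCAAT. Of 32851 mouse promoters of this length, 37.4% held CCAAT, 35.7% GGGCGG and 8.46% the NF-kB motif, on either strand, so each is common and a match is a description only.

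Col4a1 was read at 419, 294, 276 and 276 FPKM in saline 1 to 4. The LPS libraries ranged from 291 to 654 FPKM, with a median of 447. Saline 1 and saline 2 lay within the LPS range, and 5 of the 6 LPS libraries were above saline 2 to 4. The log2 fold change was 0.53 ± 0.24 (SE; n = 4 and 6; limma, adjusted p = 0.0879), which did not pass. Without saline 1 it passed (limma, adjusted p = 0.0408), and without LPS 1 as well (limma, adjusted p = 0.0295).

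Col4a2 had 291, 223, 207 and 214 FPKM in saline 1 to 4. The LPS libraries held 227 to 492 FPKM, with a median of 350. Saline 1 alone lay within the LPS range. The means of 234 ± 38.9 (saline) and 363 ± 103 (LPS) gave a log2 difference of 0.60 ± 0.23 (limma, adjusted p = 0.0477). That call did not hold without saline 2, 3 or 4 or LPS 3, 4, 5 or 6, each left out alone (limma, adjusted p up to 0.116), nor without the filter on low genes (limma, adjusted p = 0.120) or with total-read scaling (0.39; limma, adjusted p = 0.147). With quantile normalization, which fixes the distribution of levels in each library, Col4a1 and Col4a2 were at -0.0078 and 0.0084, against 1.37 and 1.44 with endothelial scaling. In total 65 exon bases of Col4a2 overlap Col4a1 or Gm15419 on the opposite strand, and whether reads were counted by strand is not given in the sources used here.

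Lama3 (ENSMUSG00000024421) encodes a laminin alpha chain known mainly from epithelial basement membranes. It was read at 2.96, 1.43, 1.86 and 1.25 FPKM in saline 1 to 4 (265 to 421 reads). In LPS it lay between 0.275 and 0.526 FPKM, with a median of 0.368 (48 to 103 reads). Its exons share 197 bases with Gm29200 on the opposite strand, whose reads cannot be told apart without strand. All 6 LPS libraries were below the lowest saline library. The mean was 79.4% lower in LPS, a log2 difference of -1.02 ± 0.16 (limma, adjusted p = 0.000375). Of the 5 members called lower, Lama3 alone was still called with endothelial scaling (-0.61; limma, adjusted p = 0.00890). With 1 added to FPKM, that scaling moves a gene as low as Lama3 less than an abundant one. The epithelial marker list fell from a median of 1587 to 555 FPKM in the same libraries, and its part in the Lama3 result was not tested. Of the 10 epithelial genes, Sftpc (1316 to 280 FPKM) and Hopx (103 to 59.6 FPKM) were lower, and no epithelial gene was at 0 in any library.

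Lama4 (ENSMUSG00000019846, chr10:38965515-39110188) encodes the laminin alpha chain typical of endothelium. It was read at 5.04, 5.94, 4.82 and 5.59 FPKM in saline and at 1.66 to 3.33 FPKM (median 2.49) in LPS. The groups were apart, with 4.82 as the lowest saline library. The mean was 53.3% lower, a log2 difference of -0.88 ± 0.14 (limma, adjusted p = 0.000502). Of the alternatives, endothelial scaling alone ended the call (-0.22; limma, adjusted p = 0.309).

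Lama5 (ENSMUSG00000015647, chr2:180176373-180225859), the other endothelial alpha chain and the most abundant one here, was at 57.3, 33.2, 31.6 and 36.4 FPKM in saline. Its LPS libraries ranged from 17.8 to 40.7 FPKM (median 27.1). The groups overlapped, since LPS 6 lay above saline 2 to 4. The log2 fold change of -0.52 ± 0.23 did not pass (limma, adjusted p = 0.0795). It passed with total-read scaling (-0.71) and quantile normalization (-0.90), and turned to 0.30 with endothelial scaling, which is -0.36 relative to the median of all genes. Without LPS 6 it passed as well (-0.64; limma, adjusted p = 0.0271), and without saline 1 it was at -0.33 (limma, adjusted p = 0.222).

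Both laminin beta chains fell. Lamb1 (ENSMUSG00000002900, chr12:31265234-31329644), the beta chain of early and widespread laminins, was at 9.64, 7.61, 4.25 and 7.63 FPKM in saline and at 2.05 to 5.98 (median 3.44) in LPS. Saline 3 lay within the LPS range and the other saline libraries above it. Its log2 difference was -0.84 ± 0.23 (limma, adjusted p = 0.0108). Lamb2 (ENSMUSG00000052911, chr9:108479736-108490530), the beta chain of mature vessels, was at 43.2, 37.9, 35.3 and 40.2 FPKM in saline. In LPS it was at 10.9 to 30.0 FPKM, with a median of 21.8, and no library overlapped. Its log2 difference was -0.85 ± 0.23 (limma, adjusted p = 0.0101). With endothelial scaling neither was called, at -0.15 and -0.04. Without saline 1 and 3 together, Lamb2 was just past the limit (limma, adjusted p = 0.0506).

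The bases before the annotated starts of these genes are shown because the promoter windows of the pair, which moved alike, hold different letters. Both come from RefSeq (GRCm38.p6), on the plus strand at chr12:31265043-31265233 and chr9:108479612-108479735, with CCAAT and GGGCGG on either strand in capitals.
Lamb1: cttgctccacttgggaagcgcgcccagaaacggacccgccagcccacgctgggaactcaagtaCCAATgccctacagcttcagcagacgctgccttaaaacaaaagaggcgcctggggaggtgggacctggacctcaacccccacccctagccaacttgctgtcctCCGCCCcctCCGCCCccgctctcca
Lamb2: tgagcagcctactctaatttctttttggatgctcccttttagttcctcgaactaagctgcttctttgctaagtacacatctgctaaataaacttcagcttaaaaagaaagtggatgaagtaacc
Lamb1 held CCAAT at 1 place and GGGCGG at 2 in its 300-base window, and Lamb2 held neither. The letters TATAAA (in 13.6% of all promoters), the palindrome TGANTCA (7.81%) and the NF-kB motif (8.46%) matched in neither. Nid1 held CCAAT at 1 place and GGGCGG at 1, and Lama5 held GGGCGG at 4 places and CCAAT at none. No match says only that these letters are not in the window.

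Lamc1 (ENSMUSG00000026478, chr1:153218922-153332786), the gamma chain shared by most laminins, was at 33.2, 26.5, 23.2 and 24.6 FPKM in saline. The LPS libraries spread from 18.4 to 38.1 FPKM (median 27.6), on both sides of the saline group. The means were 26.9 ± 4.40 and 28.1 ± 8.79 FPKM, with a log2 difference of 0.02 ± 0.22 (limma, adjusted p = 0.955). Its sign turned with total-read scaling (-0.18) and quantile normalization (-0.36), and with endothelial scaling it was called higher (0.83; limma, adjusted p = 0.00440).

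Of the nidogens, Nid1 (ENSMUSG00000005397, chr13:13437551-13512269) was at 48.1, 41.2, 39.2 and 38.3 FPKM in saline and at 21.2 to 45.8 (median 34.1) in LPS. LPS 4 and LPS 6 lay within the saline range and the other LPS libraries below it. The log2 difference was -0.37 ± 0.22 (limma, adjusted p = 0.171), and 0.45 with endothelial scaling. Nid1 exons share 143 bases with Gm48682 on the opposite strand. Nid2 (ENSMUSG00000021806, chr14:19751265-19811787), the less abundant nidogen, was at 2.13, 1.73, 1.42 and 2.13 FPKM in saline. Its LPS range of 0.655 to 1.47 FPKM (median 1.26) reached past saline 3 alone. It was called lower at -0.39 ± 0.14 (limma, adjusted p = 0.0332), and the call did not hold without saline 1, 2 or 4 or LPS 4 (limma, adjusted p up to 0.0992), nor without the filter on low genes (limma, adjusted p = 0.0809), with quantile normalization (limma, adjusted p = 0.0645) or without saline 1 and 3 together (limma, adjusted p = 0.0554). With endothelial scaling it was at 0.12. Nid2 exons share 437 bases with Rtraf on the opposite strand, and without strand the reads of such overlapping genes cannot be told apart.

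**Figure D2:**
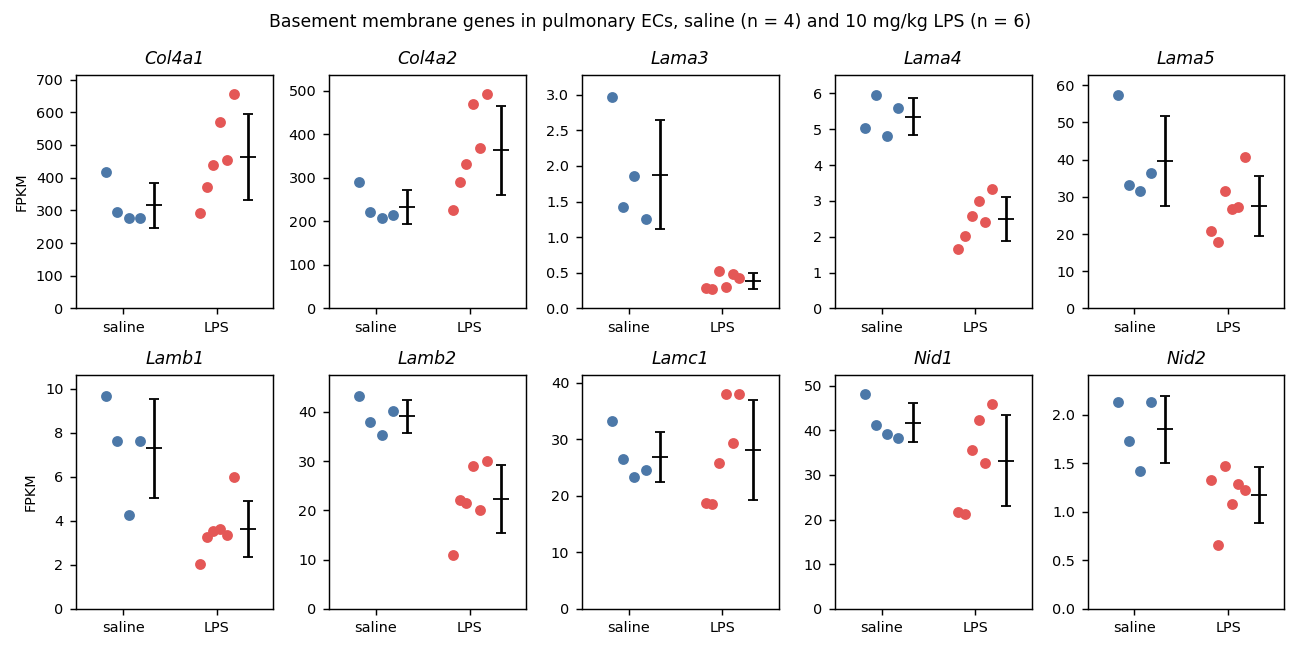
FPKM of each member in the 4 saline and 6 LPS libraries (points), with the group mean and SD (line and bar) at the right of each group. On the deposited scale Lama3, Lama4 and Lamb2 had no overlap between groups, while the medians of Col4a1 were 285 and 447 FPKM; with endothelial scaling only Lama3 was called lower.

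Within the LPS group, LPS 6 was the highest library for 7 of the 10 members, and LPS 1 or LPS 2 was the lowest for each of the 10 (5 members each). Col4a1 and Col4a2 in LPS 1 (291 and 227 FPKM) were below their values in LPS 6 (654 and 492 FPKM). LPS 1 also had the lowest endothelial sum (1356 FPKM) and the highest leukocyte sum (1554 FPKM), and LPS 6 the lowest leukocyte sum (641 FPKM). The part of these sums in the spread of the members was not tested.

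Ratios within a library were compared next, since they do not depend on library scaling. The ratio of Col4a1 to Col4a2 was 1.44, 1.32, 1.33 and 1.29 in saline and 1.22 to 1.33 in LPS. It was the tightest of the ratios, and the difference of -0.07 on the log2 scale did not pass (two-sided exact permutation test, p = 0.124, adjusted p = 0.330 over 8 tests, 4 ratios in 2 comparisons). Lama4 to Lama5 was 0.0878, 0.179, 0.153 and 0.154 in saline and 0.0798 to 0.113 in LPS. Saline 1 lay within the LPS range and the other saline libraries above it (difference -0.60, exact permutation p = 0.0381, adjusted p = 0.305). Neither Lamb1 to Lamb2 (difference -0.13, exact permutation p = 0.552) nor Nid1 to Nid2 (0.30, exact permutation p = 0.305) passed. Without 1 library the differences ranged from -0.32 to -0.026 (Lamb1 to Lamb2), 0.18 to 0.45 (Nid1 to Nid2) and -0.092 to -0.039 (Col4a1 to Col4a2). The smallest p that 4 libraries against 6 can give is 0.00952.

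A few ratios across chain classes were picked after the values were seen and are given without a test. Col4a2 to Lamb2 was 5.33 to 6.74 in saline (median 5.86) and 13.1 to 20.9 in LPS (median 16.3). Lamc1 to Lamb2 was 0.613 to 0.767 in saline and 0.835 to 1.72 in LPS, and Lamc1 to Lama4 was 4.41 to 6.59 and 9.15 to 12.7. None of these ranges overlapped between saline and LPS. Of the summed FPKM of the 3 alpha chains, Lama5 made up 81.8 to 87.8% in saline and 88.6 to 91.5% in LPS, while Lama3 made up 2.90 to 4.86% and 0.968 to 1.59%. Lamb2 made up 81.8 to 89.3% of the 2 beta chains in saline and 83.4 to 89.0% in LPS, so that share overlapped.

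**Figure D3:**
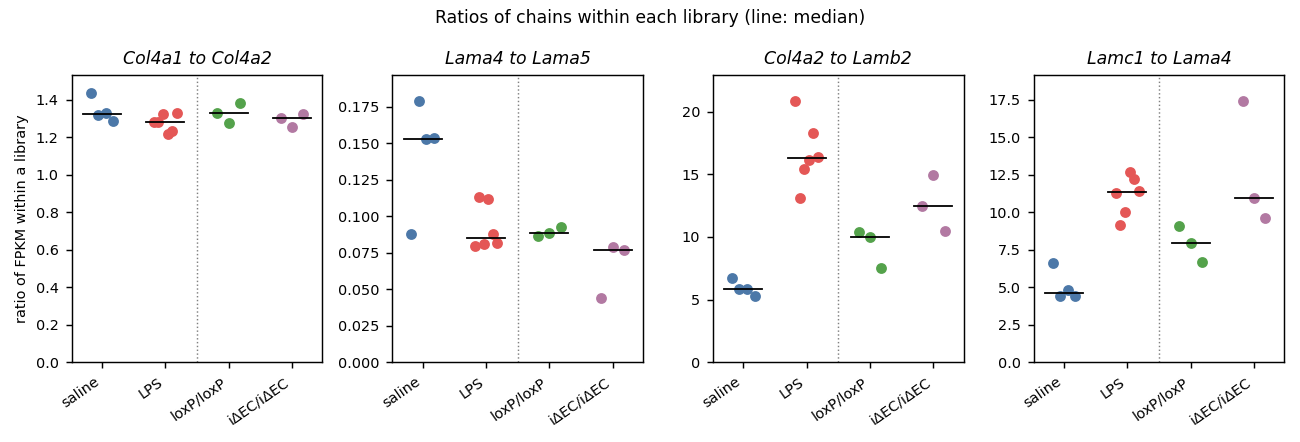
Ratios of FPKM between 2 members within a library, with 1 point per library and the group median as a line, for saline, LPS, loxP/loxP and iΔEC/iΔEC libraries; the dotted line separates the experiments. Col4a1 to Col4a2 stayed between 1.22 and 1.44 in all 16 libraries, while Col4a2 to Lamb2 was at most 6.74 in saline and at least 13.1 in LPS. Col4a2 to Lamb2 and Lamc1 to Lama4 were picked after the values were seen and were not tested.

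Genes that work with the members were read from 6 lists of 52 genes. Since directions rest on scaling, the calls with endothelial scaling are given beside those on the deposited scale. Of other laminin chains, Lama2 (-0.83) and Lama1 (-0.45) fell. Lama2 was not called with endothelial scaling (-0.44; limma, adjusted p = 0.0570), and the call of Lama1 did not hold without saline 2 or LPS 1, 2, 4 or 5, each left out alone (limma, adjusted p up to 0.0701). Of the 5 tested of 6 other basement membrane collagens, 3 fell and 2 rose, and with endothelial scaling too 3 were lower and 2 higher. Col18a1, whose product carries the endostatin fragment, rose from 4.53 to 28.0 FPKM (2.43, limma, adjusted p = 0.000135), and Col15a1 rose by 0.75. Of the minor collagen IV chains, Col4a5 (-1.25) and Col4a3 (-1.15) fell, and the groups did not overlap for these genes. Whether their change differed from that of Col4a1 and Col4a2 was not tested. Their levels were low, 2.98 and 2.57 FPKM in saline.

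Of 10 other glycoproteins and proteoglycans of the sheet, 5 fell and 1 rose, while with endothelial scaling 3 were lower and 5 higher. Npnt, an integrin ligand, fell from 45.6 to 7.62 FPKM (-2.46) and Ntn4, a laminin-binding netrin, from 35.7 to 7.78 FPKM (-2.14), while Smoc2 rose by 0.42 at under 1 FPKM. Npnt (-1.67) and Ntn4 (-1.37) were called lower with endothelial scaling as well. The Smoc2 call did not hold when any library but saline 1 or LPS 3 was left out (limma, adjusted p up to 0.119). Among 13 genes of collagen and laminin assembly, 4 rose and 2 fell, while with endothelial scaling 9 were higher and 0 lower. P4hb (0.92) and P4ha1 (0.77), subunits of the prolyl hydroxylase that collagen chains need to fold, rose. Pxdn (-1.13), a peroxidase that cross-links collagen IV, and Loxl2 (-0.76), a lysyl oxidase, fell, but neither was called with endothelial scaling (-0.31 and -0.18).

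Among 10 receptors, 6 fell and 1 rose, while with endothelial scaling 1 was lower (Itga1) and 3 higher (Itga3, Itgb1, Cd151). Itga1 (-1.69), the alpha chain of a collagen IV receptor, and Itga6 (-1.11), that of laminin receptors, fell, and Itgb1 (0.61), their common beta chain, rose. Itga6 was at -0.28 and not called with endothelial scaling. Of 8 enzymes that degrade basement membrane proteins, 6 rose and 1 fell, while with endothelial scaling 7 were higher and 0 lower. Ctss (49.7 to 724 FPKM, 3.92) and Ctsb (42.5 to 270.1 FPKM, 2.63), lysosomal cathepsins abundant in macrophages, rose, and Mmp2 fell by 0.93 (-0.19 and not called with endothelial scaling). The macrophage list rose in the same libraries (median sum 105 to 1071 FPKM) and its part in the enzyme values was not tested. All of these calls are limma at an adjusted p at or under 0.05, against 23.7% of genes lower and 29.5% higher on the deposited scale and 4.04% lower and 52.5% higher with endothelial scaling.

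In the second experiment Fgfr1 was read first, as a check of the labels. It was at 2.90, 2.91 and 2.59 FPKM in loxP/loxP 1 to 3 and at 0.683, 1.41 and 1.15 FPKM in iΔEC/iΔEC 1 to 3. The groups were apart in the direction of the labels, with a log2 difference of -0.88 ± 0.16 (limma, adjusted p = 0.960). The value is over the whole gene, not the deleted exons alone. No gene of the 14944 tested was called in either direction by limma (0.0% called; smallest adjusted p = 0.732) or by limma-voom on read numbers. At an unadjusted p under 0.05 limma gave 318 genes higher (2.13%) and 345 lower (2.31%). No member is therefore called changed by the deletion.

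The values still showed an order. Of the 10 members, 5 were higher in every iΔEC/iΔEC library than in every loxP/loxP library (Col4a1, Col4a2, Lama5, Lamc1, Nid1), where 6.1% of all genes were so, and 1 was lower (Lama3), where 4.07% were. The same 5 had an unadjusted p under 0.05 (limma), and 0 members were lower at that limit. The median change over the members was 0.23 and that over all genes 0.01. With 3 libraries against 3 an exact permutation test of 1 gene cannot go below 0.1.

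Col4a1 was at 406.5, 294 and 339 FPKM in loxP/loxP 1 to 3 and at 566, 448 and 511 FPKM in iΔEC/iΔEC 1 to 3. The lowest deleted library was above the highest control. The means were 347 ± 56.5 and 508 ± 59.3 (SD, n = 3 each), with a log2 difference of 0.56 ± 0.20 (limma, unadjusted p = 0.0290, adjusted p = 0.960). Col4a2 was at 306, 231 and 245 FPKM against 434, 357 and 386 FPKM, also apart, with a log2 difference of 0.60 ± 0.18 (limma, unadjusted p = 0.0148, adjusted p = 0.960).

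Lama5 was at 35.7, 36.1 and 30.7 FPKM in loxP/loxP and at 43.7, 39.7 and 43.9 FPKM in iΔEC/iΔEC (0.31 ± 0.11). Lamc1 was at 28.0, 25.5 and 19.0 FPKM against 33.4, 34.3 and 32.3 FPKM (0.46 ± 0.15, and 0.31 without loxP/loxP 3). Nid1 was at 39.6, 28.6 and 30.4 FPKM against 53.1, 40.6 and 44.3 FPKM (0.48 ± 0.16). For all 3 genes the groups were apart and the adjusted p was 0.960 (limma). Nid1 was apart by the smallest step, 40.6 against 39.6 FPKM.

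Lama3 went the other way, at 1.02, 1.51 and 1.18 FPKM in loxP/loxP and at 0.939, 0.735 and 0.807 FPKM in iΔEC/iΔEC (-0.29 ± 0.14; limma, unadjusted p = 0.0767). The groups overlapped for the other 4 members. Lama4 was at 3.08, 3.20 and 2.85 FPKM against 1.92, 3.14 and 3.36 FPKM (-0.11 ± 0.17), and its sign turned without iΔEC/iΔEC 1 (0.07). Lamb1 (-0.16), Lamb2 (0.15, and -0.11 with endothelial scaling) and Nid2 (-0.14) were the others. Without 1 library they ranged from -0.23 to -0.073 (Lamb1), 0.0095 to 0.33 (Lamb2) and -0.20 to -0.083 (Nid2). Libraries of the same replicate number were taken as pairs, which the labels do not state. In all 3 pairs, 6 members were higher in the deleted library (Col4a1, Col4a2, Lama5, Lamb2, Lamc1, Nid1), as were 18% of all genes tested. In all 3 pairs, 2 were lower (Lama3, Lamb1), as were 12.8%. The differences in Col4a1 were 0.48, 0.60 and 0.59 on the log2 scale and those in Nid1 were 0.41, 0.49 and 0.53.

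**Figure D4:**
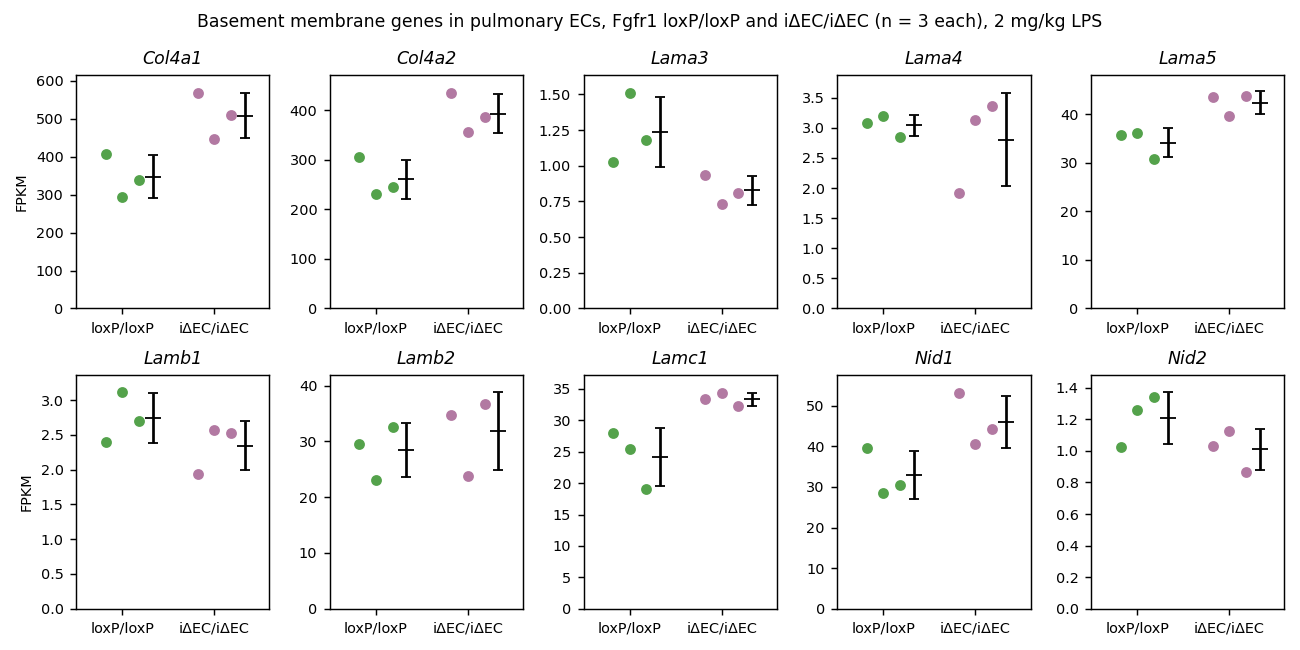
FPKM of each member in the 3 loxP/loxP and 3 iΔEC/iΔEC libraries (points), with the group mean and SD (line and bar) at the right of each group, all after 2 mg/kg LPS. Col4a1, Col4a2, Lama5, Lamc1 and Nid1 had no overlap, with the iΔEC/iΔEC libraries above, and Lama3 had none, with them below; no difference passed the test over all genes.

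The marker lists differed between these groups too. The endothelial list summed to 2902, 2278 and 2419 FPKM in loxP/loxP 1 to 3 and to 3676, 2591 and 3474 FPKM in iΔEC/iΔEC 1 to 3. The epithelial list summed to 669.7, 1121 and 1355 FPKM against 349, 781 and 455 FPKM, and the leukocyte list to 458, 606 and 542 FPKM against 308.5, 674 and 409.5 FPKM. The ranges of all of these sums overlapped and no marker gene was called. In pairs of the same replicate number, the endothelial sum was higher and the epithelial sum lower in the deleted library in 3 of 3 pairs, and the leukocyte sum was lower in 2 of 3. The neutrophil, mural and mesothelial sums were lower in 3 of 3 pairs too, the macrophage sum was lower in 2 of 3 and the fibroblast sum higher in 2 of 3. Of these only the mesothelial sum did not overlap, at 0.585 to 0.719 FPKM in loxP/loxP and 0.308 to 0.462 in iΔEC/iΔEC. That list was near the floor, with 2 or 3 of its 5 genes at 0 in each library and 0 passing the filter for the test. The part of these sums in the values of the members was not tested. Scaling on the endothelial list, under which the median change of all genes was -0.20, left Col4a1 at 0.29, Col4a2 at 0.33, Nid1 at 0.22, Lamc1 at 0.21 and Lama5 at 0.04. The differences therefore became smaller on that scale. Relative to the median of all genes they were 0.49, 0.52, 0.41, 0.40 and 0.24.

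Chain ratios did not pass in this experiment. Lama4 to Lama5 was 0.0862, 0.0885 and 0.0928 in loxP/loxP and 0.0439, 0.0790 and 0.0766 in iΔEC/iΔEC, which did not overlap (difference -0.47, two-sided exact permutation p = 0.1, adjusted p = 0.330). Col4a1 to Col4a2 differed by -0.04 (exact permutation p = 0.4), Lamb1 to Lamb2 by -0.38 (exact permutation p = 0.4) and Nid1 to Nid2 by 0.75 (exact permutation p = 0.2). Without 1 library the differences ranged from -0.62 to -0.20 (Lama4 to Lama5), -0.65 to -0.14 (Lamb1 to Lamb2) and -0.068 to -0.0096 (Col4a1 to Col4a2). Within pairs, Nid1 to Nid2 was higher and the other 3 ratios lower in the deleted library in 3 of 3 pairs, where an exact paired permutation test gave p = 0.25, the smallest that 3 pairs allow. Col4a2 to Lamb2, given without a test, was 7.50 to 10.4 in loxP/loxP and 10.5 to 14.97 in iΔEC/iΔEC.

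None of the pathway genes was called. Of the 10 other glycoproteins and proteoglycans 6 had a negative and 4 a positive difference, and of the 8 degrading enzymes 5 and 3. With endothelial scaling 7 of those 10 and all 8 enzymes were negative, where the median of all genes was -0.20. Of the 13 assembly genes all 13 had a positive difference, as did 7985 of all 14944 genes, and 3 were higher without overlap (P4hb, 0.22, P4ha2, 0.28, and Mia3, 0.26), against 6.1% of all genes. With endothelial scaling, which moved the median of all genes to -0.20, 10 of the 13 were negative, P4hb among them (-0.05). P4ha2 was at 0.04 and Mia3 at 0.0071. P4hb, P4ha2 and Mia3 all lay above that median. Among the receptors Itgb1 (0.34) and Itga3 (0.51) were higher without overlap and Itgb4 (-0.42) lower, and Itga1 and Itga6 overlapped. With endothelial scaling Itgb1 was at 0.07, Itga3 at 0.25 and Itgb4 at -0.65, and 6 of the 10 receptors were negative. Itgb1 and Itga3 lay above the median of all genes on that scale and Itgb4 below it. P4ha2, Mia3, Itga3, Cd151 and Itgb4 were named after their values were seen. Lama2, Col4a3 and Col4a5 were too low to be tested there.

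Set side by side, Col4a1 and Col4a2 were at 0.53 and 0.60 in LPS over saline and at 0.56 and 0.60 in iΔEC/iΔEC over loxP/loxP. With endothelial scaling they were at 1.37 and 1.44 in the first and at 0.29 and 0.33 in the second. The median of all genes on that scale was 0.65 in the first and -0.20 in the second. The values thus lay close on the deposited scale, and the gap on the other includes a shift of all genes. On the deposited scale Lama3 was at -1.02 and -0.29. Lamb2 was at -0.85 and 0.15, Lama5 at -0.52 and 0.31, and Nid1 at -0.37 and 0.48. The 2 comparisons share no library and differ in dose and genotype, their tables were normalized separately, and the difference between them was not tested. On the deposited scale these last 3 members had opposite signs, though Lama5 and Nid1 passed in neither comparison. With endothelial scaling none of the 3 had: Lamb2 was at -0.04 and -0.11, Lama5 at 0.30 and 0.04, and Nid1 at 0.45 and 0.22. That scaling moves the whole set of genes, but low genes less than high ones, since 1 is added to FPKM. In the first comparison it took Lama3 from -1.02 to -0.61 and Lamb2 from -0.85 to -0.04. Against the medians of all genes on that scale (0.65 and -0.20), Lamb2, Lama5 and Nid1 still lay below in the first comparison and above in the second.

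**Figure D5:**
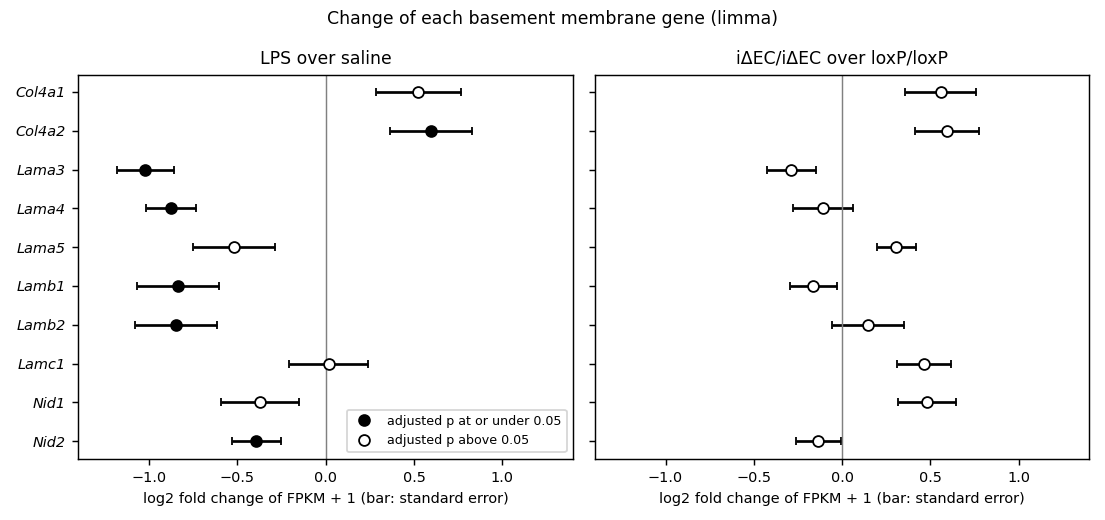
Difference of log2(FPKM + 1) of each member with its standard error (limma) for LPS over saline (left, n = 4 and 6) and iΔEC/iΔEC over loxP/loxP (right, n = 3 each), on the deposited scale; filled points have an adjusted p at or under 0.05. Col4a2 (0.60) is the only filled point above 0 on the left, and no point is filled on the right. Lama5, Nid1 and Nid2 on the left turn positive with endothelial scaling, which moves the median of all genes to 0.65. Each of them lies below that median.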

How the data were processed

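Total RNA of bead-isolated pulmonary ECs was sequenced in 16 libraries. Per the study's methods and the submitters' processing notes, the authors aligned reads to GRCm38/mm10 with HISAT2 2.0.5, counted them on genes with featureCounts 1.5.0-p3 and deposited FPKM in 2 tables of 54532 genes, normalized separately. Strand, multi-mapping and annotation settings are not given in the sources used here. FPKM multiplied by gene length gave whole reads for 100.0% of values (tolerance 0.001), so depth is known. Reads are not independent molecules. Replicates differed beyond sampling noise (mean chi-square at least 7.3).

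Genes averaging 0.5 FPKM or more were compared as log2(FPKM + 1) with limma 3.58.1 (trend) in R 4.3.3, separately in each table, checked on simulated data. Counts entered limma-voom only. Exact tests used scipy 1.17.1 and numpy 2.4.6, tables pandas 2.3.3 and figures matplotlib 3.10.9, under Python 3.11.15. The members, the lists and the tests were chosen with earlier results of these data known. Named pathway genes were up to 2 with the largest rise and 2 with the largest fall per list among those called in LPS over saline. Replicate numbers were taken to pair the libraries in the Fgfr1 experiment, since the controls were littermates and same-numbered deviations correlated at 0.25, 0.18 and 0.19. The labels do not state this pairing, which was inferred from these same data. For 11 genes the symbols of the tables differed, and those of the first were used. Not every listed pathway gene is reported here.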

Additional observations from a re-analysis of the deposited data

Results flagged for a closer look

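Of 44 group values examined for an isolated library, 1 was past the limit, where chance gives about 1 in 20. Col4a1 in saline 1 was at 418.7 FPKM, against 293.5 FPKM in the nearest and 275.5 FPKM in the lowest saline library. The same library held the most RNA of the endothelial list (5674 FPKM) and of the epithelial list (2537 FPKM) among the saline libraries. It also held the most of the leukocyte (228), neutrophil (1387), fibroblast (62.42, against 62.41 in saline 2), mural (121) and mesothelial (7.63) lists. Only the macrophage list was highest elsewhere, in saline 3 (139 FPKM). The part of these lists in the Col4a1 value was not tested. With that library left out, Col4a1 was at 0.67 on the log2 scale in LPS over saline (limma, adjusted p = 0.0408).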

How the results depend on the processing

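Results were recomputed with other pseudocounts, filters, scalings and tools and without each library. Lama3 was called lower in LPS under each setting that tested it, Lama4 and Lamb1 under each but endothelial scaling, and Lamb2 under each but that and the joint omission of saline 1 and 3, an alternative chosen after seeing the data. Collagen IV genes had at least 24457 reads per library, Lama3 had 48 to 421 and Nid2 55 to 217. The second experiment gave 0 calls under each alternative run, the block included. The cause of each shift was not tested.

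In LPS over saline, endothelial scaling gave 606 genes lower and 7890 higher, with 1 member lower and 3 higher. Without saline 1 and 3 there were 3 members lower and 0 higher, where 3135 and 4211 of 14712 genes were. No member was higher (0) without the filter (4108 of 36342 genes higher), with total-read scaling (3464 of 14991) or with quantile normalization (3570 of 14893). Members lower in these settings numbered 4, 6 and 6, against 3782, 4678 and 4295 genes. When 1 library was left out, 0 to 2 members were higher, against 3815 to 4606 genes. Signs turned for Col4a1 (-0.0078, quantile) and, with endothelial scaling, for Lama5 (0.30), Nid1 (0.45) and Nid2 (0.12). With that scaling the median of all genes was 0.65, above Lama5, Nid1 and Nid2. Signs also turned for Lamc1 (-0.18, total reads, -0.36, quantile, and -0.080 to 0.12 without 1 library) and for the log2 ratio of Lamb1 to Lamb2 (0.012 with a pseudocount of 1).

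In iΔEC/iΔEC over loxP/loxP, endothelial scaling moved the median of all genes to -0.20. It turned Lamb2 (-0.11), Col18a1 (-0.041), P4hb (-0.051), P4ha1 (-0.060), Pxdn (-0.16), Loxl2 (-0.11), Itga6 (-0.16) and Mmp2 (-0.18), each still above that median. Total-read scaling turned Mmp2 (-0.024). Without 1 library the ranges that crossed 0 were -0.22 to 0.072 (Lama4), -0.026 to 0.39 (Lama1), -0.10 to 0.40 (Col18a1), -0.23 to 0.055 (Smoc2), -0.27 to 0.11 (Ntn4), -0.067 to 0.30 (Pxdn), -0.030 to 0.14 (Loxl2), -0.15 to 0.39 (Itga6), -0.42 to 0.12 (Ctss), -0.24 to 0.11 (Ctsb) and -0.11 to 0.19 (Mmp2).

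Replicate numbers were not taken to pair the libraries in LPS over saline (same-number correlations 0.10, -0.16, -0.21 and -0.12). A replicate block there gave 2561 genes lower and 3438 higher, 4 members lower, 0 higher, and Lamc1 at -0.13, and Nid2 (limma, adjusted p = 0.109) lost its call. In the Fgfr1 experiment, where the numbers were taken to pair, the block changed no call (smallest adjusted p = 0.301, limma).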
